A study of Homo sapiens with 8 samples.

Results

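Pellets of human cells that had received a Mock treatment were separated by flow sorting into an Msx1-positive, Pdgfra-positive population and an Msx1-positive, Pdgfra-low population, and the RNA of these populations is compared here. The members were chosen by the column headings of the deposited count table: 2 Mock Pdgfra-positive libraries and 2 Mock Pdgfra-low libraries, 4 of the 8 libraries in the series, compared over all 22554 genes that passed a filter on low counts. The cells were H1, an established human embryonic stem cell line, carrying an Msx1-P2A-tdTomato reporter, in which a red fluorescent protein is made together with the transcription factor MSX1.

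All groups shared the same early treatment, given here from the labels' protocols. Day 0 brought Activin A (50 ng/mL), CHIR99021 (6 µM), which blocks the kinase GSK3, BMP4 (40 ng/mL) and FGF2 (10 ng/mL). On day 1 the mixture was replaced by BMP4 (60 ng/mL) and CHIR99021 (1 µM), which stayed for 3 days. Pellets of 25000 cells per well were formed on day 4, transferred on day 5, and sorted on day 8. The other 4 libraries, 2 Pdgfra-positive and 2 Pdgfra-low, came from pellets given FGF8 and FGF10 at 500 ng/mL each (FGF8+10), and they serve below only to show where the Mock difference departs from the difference under FGF8+10. The labels attach 1 protocol text to every library and it describes only the FGF8+10 medium, so what the Mock pellets received in its place is not given in the sources used here. Replicates are labelled as biological, but whether they came from separate differentiations is not stated, so each p-value reflects how these libraries vary, which may be technical. H1 is 1 cell line, and nothing here shows how other lines would sort.

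PDGFRA encodes a receptor tyrosine kinase for platelet-derived growth factors and is a general surface mark of mesenchyme derived from mesoderm. Lateral plate mesoderm gives rise to the limb bud mesenchyme, the heart, the body wall and the mesothelium, the flat epithelium-like sheet that lines body cavities. MSX1 is a homeobox factor of limb bud and craniofacial mesenchyme. In the limb field, FGF10 from the mesenchyme and FGF8 from the overlying ectoderm sustain each other, and FGF receptors signal largely through the RAS and ERK kinases.

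The gate could be read in the RNA. PDGFRA was at 453 and 455 CPM (counts scaled to a common adjusted library size) in the Mock Pdgfra-positive libraries and at 194 and 189 CPM in the Mock Pdgfra-low libraries, so the population called low still held PDGFRA transcripts. MSX1, selected in both gates, was at 22.1 and 21.3 CPM in Pdgfra-positive against 26.2 and 26.1 CPM in Pdgfra-low. Both genes were used by the sort and are given as a check, not as results. POU5F1 and NANOG, which mark the starting cells, did not pass the filter on low counts, but other pluripotency genes did. Of 12 listed, 8 were tested, 3 of them higher and 3 lower in Pdgfra-positive by the test below (12.4% and 13.4% over all tested genes). TDGF1 was at 51.5 and 52.3 CPM against 28.8 and 27.8 CPM, and DPPA4 at 44.7 and 44.1 CPM against 35.7 and 37.2 CPM. L1TD1 went the other way, at 0.0896 and 0 CPM against 1.54 and 1.46 CPM. Limb and lateral plate factors were present in every Mock library, with PRRX1 at 194 to 250 CPM, HAND2 at 364 to 409 CPM and HAND1 at 357 to 522 CPM. TBX5, the forelimb factor, was at 2.71 to 3.88 CPM and TBX4, its hindlimb counterpart, at 84.9 to 89.3 CPM. The Mock libraries held 47698561 to 63990830 counts, a range in which the Pdgfra-low libraries were the deeper pair, and the first principal component of the 4 libraries separated the populations and carried 54.2% of their variance.

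The 2 Mock populations differed in many genes by small amounts and in few genes by large ones. In the quasi-likelihood test of edgeR, with Benjamini-Hochberg adjustment over all tested genes at 0.05, 5824 of 22554 genes (25.8%) differed, of which 2797 (12.4%) were higher in Pdgfra-positive and 3027 (13.4%) were lower. By at least 2-fold, 875 genes (3.88%) differed, with 368 (1.63%) higher and 507 (2.25%) lower. Of the genes past 2-fold, 254 of the higher and 412 of the lower ones were protein coding. The CPM of the populations did not overlap in 13237 genes (58.7%), a count that 2 libraries against 2 reach easily. The median log2 fold change over all tested genes was 0.016, and fold changes below are log2 values of Pdgfra-positive over Pdgfra-low, given with their standard error where one is printed. "Higher" and "lower" are used only of genes that passed this adjusted threshold. Every count of list members below is to be read against the shares over all tested genes, 12.4% higher and 13.4% lower. In sorted bulk RNA, fewer cells of a type and less RNA per cell cannot be told apart.

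**Figure D1:**
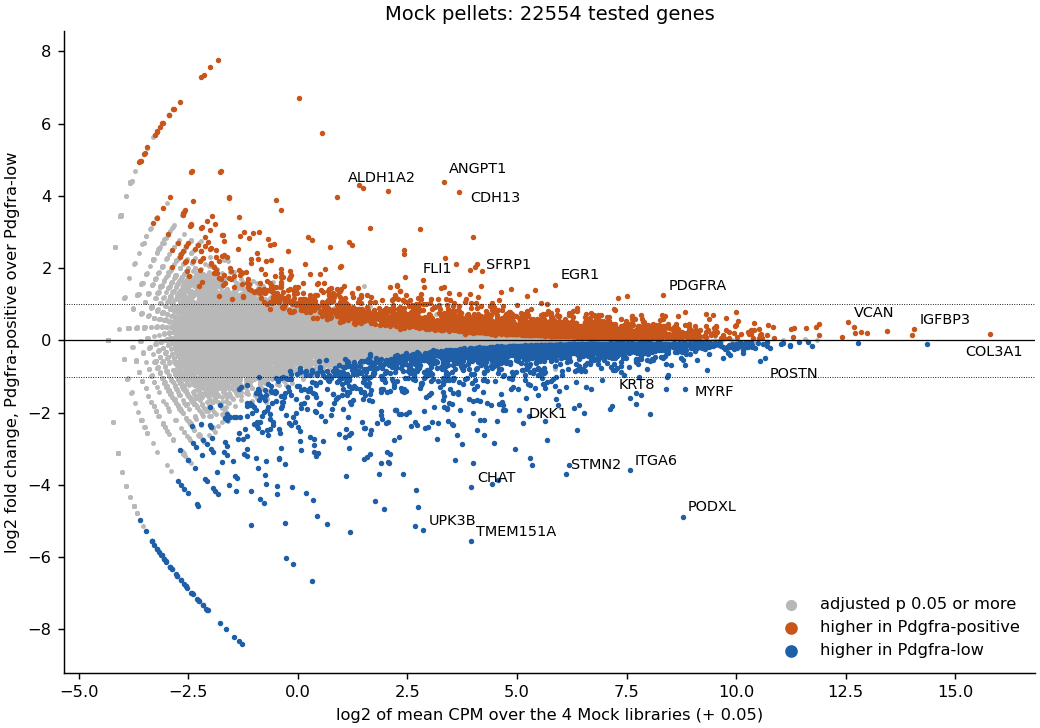
Log2 fold change of Pdgfra-positive over Pdgfra-low Mock pellets (vertical axis) against the log2 of the mean CPM over the 4 Mock libraries (horizontal axis), 1 point per tested gene; dotted lines mark a 2-fold difference. The 2797 genes higher in Pdgfra-positive are orange, the 3027 lower genes are blue, and most coloured points at high levels lie within the dotted lines.

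Genes past the test were ranked if they reached 5 CPM in the higher population and did not overlap between the Mock populations. Of these, the 12 with the largest excess in Pdgfra-positive had log2 fold changes of 2.11 to 4.37, and 11 of them are described here. ANGPT1, which encodes the angiopoietin ligand of the TEK receptor, was at 18.6 and 19.7 CPM in Pdgfra-positive against 0.854 and 0.992 CPM in Pdgfra-low, a log2 fold change of 4.37 ± 0.0863 (adjusted p = 1.64e-36). ALDH1A2 (chr15:57953424-58497866, minus strand), the enzyme that makes retinoic acid from retinaldehyde in embryonic mesoderm, was at 7.10 and 8.36 CPM against 0.345 and 0.529 CPM (4.14 ± 0.159, adjusted p = 2.38e-25). CDH13 (chr16:82626965-83800640, plus strand), a cadherin anchored in the membrane by a lipid, was at 24.3 and 24.0 CPM against 1.59 and 1.17 CPM (4.12 ± 0.0758, adjusted p = 1.16e-37). In each of these genes both Pdgfra-positive libraries lay far above both Pdgfra-low libraries. NPR1, the receptor for atrial natriuretic peptide, was at 11.9 and 12.5 CPM against 1.20 and 1.67 CPM, a log2 fold change of 3.09. The others described were COLEC10 at 4.21, TNFRSF1B at 3.12, SPRY4 at 2.49, CDCA7L at 2.40, SPRY1 at 2.27, SLITRK6 at 2.12 and FOSB at 2.11. ALDH1A2, CDH13 and CDCA7L share exon sequence with genes on the opposite strand, which unstranded counting cannot separate.

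The 12 genes with the largest deficit in Pdgfra-positive, chosen in the same way, had log2 fold changes of -5.56 to -3.71. PODXL (chr7:131500262-131558217, minus strand), an anti-adhesive sialomucin of apical membranes, was at 30.5 and 27.5 CPM in Pdgfra-positive against 862 and 838 CPM in Pdgfra-low, a log2 fold change of -4.88 ± 0.0395 (adjusted p = 5.07e-46). UPK3B (chr7:76510525-76516522, plus strand), a uroplakin made by mesothelium, was at 0.403 and 0.332 CPM against 15.2 and 12.8 CPM (-5.25 ± 0.244, adjusted p = 2.46e-22). TMEM151A (chr11:66291894-66296664, plus strand), a transmembrane protein, was at 0.694 and 0.581 CPM against 30.4 and 30.0 CPM (-5.56 ± 0.165, adjusted p = 1.24e-29). All of these were near 1 CPM or below in Pdgfra-positive except PODXL, which kept a clear level there. CA12, a carbonic anhydrase of the cell surface, was at 2.42 and 2.74 CPM against 38.3 and 42.4 CPM, and CEMIP, which takes part in hyaluronan breakdown, was at 2.82 and 3.30 CPM against 45.6 and 43.6 CPM. The remaining log2 fold changes were -5.14 for PKHD1L1, -4.66 for LRP2, -4.62 for TMEM255A, -4.44 for MEOX1, -4.13 for GCNT2, -4.06 for CHAT and -3.71 for ANXA8. ANXA8 has a near-identical copy in the genome and its counts are uncertain.

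**Figure D2:**
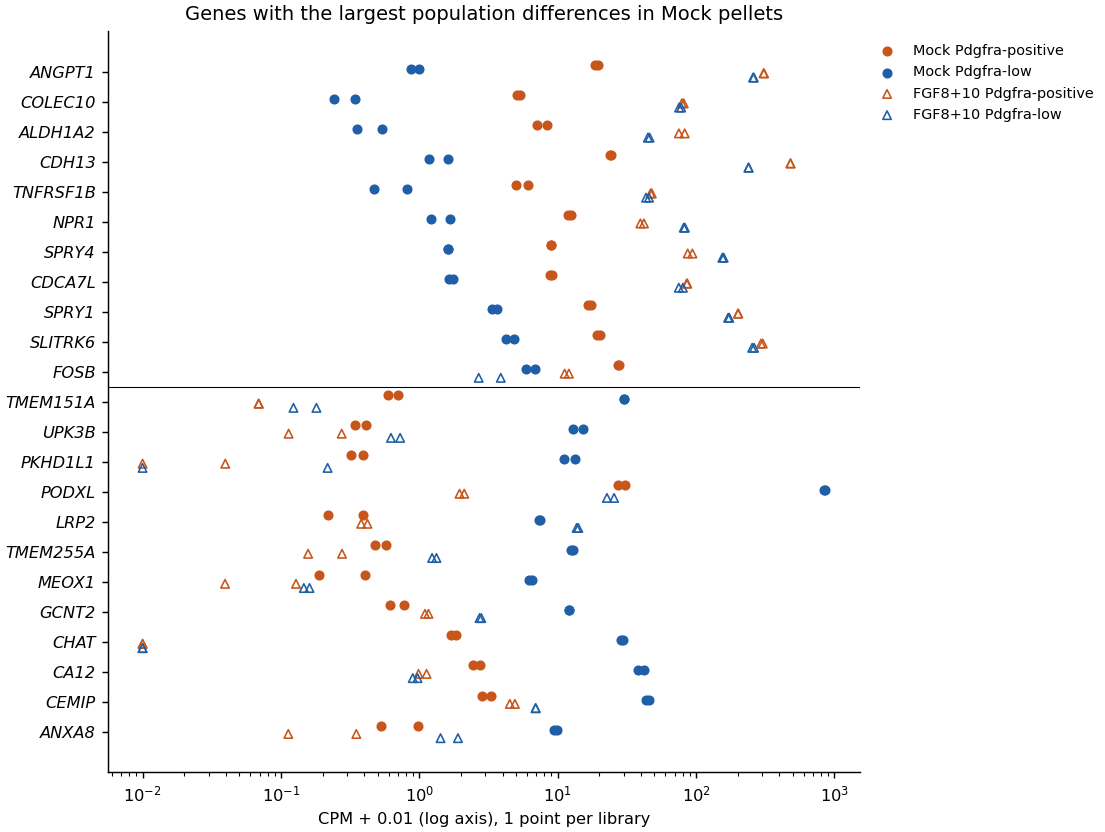
CPM plus 0.01 on a log axis for 11 of the 12 genes with the largest excess (above the line) and the 12 with the largest deficit (below it) in Mock Pdgfra-positive pellets, 1 point per library. Filled orange and blue circles are the Mock populations (PODXL at 30.5 and 27.5 against 862 and 838 CPM), and open triangles are the FGF8+10 populations. The Mock populations are apart in every row because genes that overlapped were left out of the ranking.

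Of the 8 genes with the largest excess in absolute CPM, 7 encode matrix proteins, and their fold changes were small. COL3A1, a fibrillar collagen, was at 60765 and 60429 CPM in Pdgfra-positive and 53755 and 53881 CPM in Pdgfra-low (log2 fold change 0.17 ± 0.0111, adjusted p = 3.98e-17). IGFBP3, a secreted binder of insulin-like growth factors, was at 18701 and 18904 CPM against 15113 and 15250 CPM (0.31). VCAN, the large proteoglycan versican, was at 7155 and 7065 CPM against 4981 and 5007 CPM (0.51). These differences were small beside those of the leading genes but exceeded the gap between the libraries of a population. The largest deficits in absolute CPM included EEF1A1, a translation factor, at 20388 and 20070 CPM against 21271 and 21996 CPM (-0.10), PODXL (-4.88) and MYRF, a transcription factor, at 261 and 260 CPM against 662 and 656 CPM (-1.34). Of 22 fibrillar and network collagens, 14 were higher and 4 lower, with a median log2 fold change of 0.18. The higher ones included the basement membrane chains COL4A1 (0.38) and COL4A2 (0.44), while COL15A1 (-0.68), COL11A1 (-0.50) and COL18A1 (-0.17) were lower.

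Other matrix and adhesion genes moved in both directions. Of 28 small proteoglycans and matricellular proteins, 11 were higher and 10 lower. SMOC1, a calcium-binding matrix protein, was at 63.3 and 59.3 CPM against 24.6 and 21.6 CPM (1.41), TNC (tenascin C) had a log2 fold change of 1.16, and FBN1 (fibrillin 1) of 0.70. FMOD (fibromodulin), which regulates collagen fibrils, was at 56.0 and 53.8 CPM against 135 and 136 CPM (-1.30), and POSTN (periostin) was at 1202 and 1204 CPM against 1779 and 1821 CPM (-0.58). DCN (decorin) stood at 3720 and 3649 CPM against 3604 and 3678 CPM, values that overlapped and did not pass the test. Of 27 basement membrane and integrin genes, 7 were higher and 10 lower. ITGA6, the laminin-binding integrin alpha 6 chain, was at 28.6 and 29.9 CPM in Pdgfra-positive against 350 and 352 CPM in Pdgfra-low (-3.59 ± 0.0405, adjusted p = 5.27e-46), and LAMA3, a chain of epithelial laminin, had a log2 fold change of -2.46. ITGA11, a collagen-binding integrin of mesenchyme, was also lower, at 3.72 and 3.78 CPM against 18.3 and 16.8 CPM (-2.23), as was LAMA1 (-0.55). NID1 (0.61), LAMA2 (0.60) and ITGA8 (0.99) were higher.

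Of 28 tested ligands, receptors and feedback genes, 10 were higher and 4 lower, and 7 of the 10 passed 2-fold. ETV1, an ETS transcription factor induced by FGF signalling, was at 5.58 and 4.25 CPM in Pdgfra-positive against 0.230 and 0.265 CPM in Pdgfra-low (4.30 ± 0.197, adjusted p = 1.64e-22). Its relative ETV4 was at 1.75 and 2.22 CPM against 0.263 and 0.281 CPM (2.86), whereas ETV5 was at 4.77 and 6.20 CPM against 6.62 and 5.95 CPM and did not pass the test. The ETS genes thus split, with ETV1 and ETV4 separated and ETV5 overlapping. The feedback inhibitor SPRY4 was at 9.01 and 8.96 CPM against 1.59 and 1.60 CPM, SPRY1 at 16.5 and 17.3 CPM against 3.37 and 3.64 CPM, and DUSP6, the ERK phosphatase, at 4.32 and 4.03 CPM against 1.87 and 2.08 CPM (1.08). SPRED2 (0.46) and SPRED1 (0.34) were higher by less, and SPRY2 was at 14 and 13.3 CPM against 12.9 and 14.1 CPM without passing the test. DUSP4 was lower, at 9.66 and 11.1 CPM against 23.1 and 21.5 CPM (-1.10). Among ligands, FGF18 was at 0.224 and 0 CPM against 2.05 and 2.07 CPM (-4.22), FGF7 was higher (0.32), FGF10 was at 2.46 and 2.72 CPM against 2.50 and 2.75 CPM without passing the test, and FGF8 did not pass the filter on low counts. Of the receptors, FGFR3 was at 101 and 106 CPM against 152 and 150 CPM (-0.54), FGFR2 was slightly lower (-0.09), and FGFR1 and FGFR4 did not pass the test.

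Immediate early genes are transcribed within minutes of growth factor stimulation and also during tissue dissociation, and they did not all move one way. FOSB was at 27.7 and 27.3 CPM against 5.88 and 6.83 CPM (2.11 ± 0.113, adjusted p = 3.69e-20). EGR1, a zinc finger factor, was at 88.9 and 85.4 CPM against 28.5 and 31.4 CPM (1.54 ± 0.0545, adjusted p = 1.1e-26), and FOS at 254 and 255 CPM against 111 and 108 CPM (1.21 ± 0.0302, adjusted p = 1.25e-32). The populations did not overlap in any of these, and JUNB (0.72), IER2 (0.63) and KLF4 (0.60) were also higher. JUN was at 50.2 and 46.5 CPM against 44.4 and 43.3 CPM and did not pass the test, but passed it without Mock Pdgfra-positive replicate 2 (0.19). The list of 20 dissociation and heat shock genes that holds them had 7 members higher and 5 lower. Its lower members were HSP90AA1 (-0.36), HSPH1 (-0.29) and HSPA8 (-0.23), which are heat shock chaperones, with ATF3 (-0.71) and KLF6 (-0.11). The part of cell handling in these differences was not tested.

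The start regions of EGR1, FOS, FOSB and JUNB are shown because these genes were higher together. Each is the 250 bases before the RefSeq start on GRCh38.p14, all on the plus strand, at chr5:138465229-138465478, chr14:75278578-75278827, chr19:45467746-45467995 and chr19:12791236-12791485. Capitals mark the CArG box, the binding motif of serum response factor, or the letters TATAAA, each searched on both strands.
EGR1: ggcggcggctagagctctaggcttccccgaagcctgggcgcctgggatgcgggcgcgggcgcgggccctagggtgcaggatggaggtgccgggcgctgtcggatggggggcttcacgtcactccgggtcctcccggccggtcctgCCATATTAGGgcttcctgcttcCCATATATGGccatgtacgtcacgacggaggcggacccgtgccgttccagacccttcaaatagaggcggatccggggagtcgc
FOS: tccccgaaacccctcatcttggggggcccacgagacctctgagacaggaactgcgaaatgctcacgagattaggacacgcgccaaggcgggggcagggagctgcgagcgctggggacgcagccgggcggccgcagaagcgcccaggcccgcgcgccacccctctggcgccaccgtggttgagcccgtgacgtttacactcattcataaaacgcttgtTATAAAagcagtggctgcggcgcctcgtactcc
FOSB: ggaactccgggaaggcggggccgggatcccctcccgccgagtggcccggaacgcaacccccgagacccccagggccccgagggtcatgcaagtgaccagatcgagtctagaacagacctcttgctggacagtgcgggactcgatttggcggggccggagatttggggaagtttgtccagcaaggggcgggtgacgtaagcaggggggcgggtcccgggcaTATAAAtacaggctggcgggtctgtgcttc
JUNB: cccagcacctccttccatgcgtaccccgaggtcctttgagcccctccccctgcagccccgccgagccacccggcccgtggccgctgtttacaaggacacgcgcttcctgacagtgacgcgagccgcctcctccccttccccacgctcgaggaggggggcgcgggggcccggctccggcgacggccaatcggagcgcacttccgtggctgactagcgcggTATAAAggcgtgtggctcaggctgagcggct
The EGR1 window held 2 CArG boxes and no TATAAA, and the windows of FOS, FOSB and JUNB each held TATAAA and no CArG box. With IER2 and KLF4 added, 1 of 6 immediate early genes had a CArG box and 3 of 6 had TATAAA. Among all 35116 RefSeq windows of that length, 1.16% held a CArG box and 10.7% held TATAAA. A match is a description of the letters only. The search stopped at 250 bases, so a window without a CArG box does not show that the gene lacks one farther upstream.

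Markers of mesothelium and epicardium were lower in Pdgfra-positive. Of 17 tested markers, 12 were lower and 2 higher, 8 of the 12 by at least 2-fold, with a median log2 fold change of -0.92 against 0.016 over all genes. Their summed level was 950.5 and 944.8 CPM in Pdgfra-positive against 2396 and 2371 CPM in Pdgfra-low. Most of that gap came from PODXL, at 30.5 and 27.5 CPM against 862 and 838 CPM, and from KRT8. Besides UPK3B and PODXL, BNC1, a zinc finger factor of mesothelium and stratified epithelium, was at 17.3 and 17.6 CPM against 83.0 and 80.7 CPM (-2.23 ± 0.0648, adjusted p = 4.93e-30). KRT8, a keratin of simple epithelia, was at 189 and 190 CPM against 484 and 486 CPM (-1.36). Its partner KRT18 was at 71.8 and 72.8 CPM against 119 and 115 CPM (-0.69), and the 2 keratin genes share some exon sequence on opposite strands. Both populations held these keratins, at lower levels in Pdgfra-positive. KRT19 (-0.39), LRRN4 (-0.56), TBX18 (-1.35) and CALB2 (-3.27) were lower as well. The list was not uniform: ALDH1A2 (4.14) and TCF21 (0.20), an epicardial and visceral mesenchyme factor, were higher, and WT1 and MSLN, defining markers of mesothelium, were at most at 0.0415 and 0.312 CPM in any Mock library. The count of higher markers was 1 without Mock Pdgfra-positive replicate 1 or without Mock Pdgfra-low replicate 1.

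Of 19 tested simple epithelium markers, 6 were lower and 13 did not pass the test, and 3 of the 6 were the keratins KRT8, KRT18 and KRT19. CDH1, the epithelial cadherin, was at 0.896 and 0.457 CPM against 1.51 and 0.893 CPM, and EPCAM was at 0.762 and 0.498 CPM against 0.821 and 0.893 CPM. Neither passed the test, and CDH1 overlapped. Among genes of the transition between epithelium and mesenchyme, VIM (0.40) and CDH11 (0.28) were higher, while ZEB1 was at 12.7 and 12.4 CPM against 27.2 and 27.8 CPM (-1.13) and SNAI2 was at 189 and 189 CPM against 264 and 273 CPM (-0.51). That list of 13 had 8 higher and 2 lower, and the count of higher members was 5 without Mock Pdgfra-positive replicate 2. ZEB1 and SNAI2 repress epithelial genes, and both were lower in the population with less keratin.

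Several genes known from cholinergic and other neurons were lower in Pdgfra-positive. CHAT (chr10:49609095-49667942, plus strand), which makes acetylcholine, was at 1.68 and 1.83 CPM against 29.7 and 28.8 CPM (-4.06 ± 0.143, adjusted p = 6.99e-26). SLC18A3 (chr10:49610310-49612720, plus strand), the vesicular acetylcholine transporter, which lies within the span of CHAT, was at 13.5 and 13.1 CPM against 92.9 and 87.7 CPM (-2.76). STMN2, a microtubule regulator of growing axons, was at 9.39 and 10.4 CPM against 129 and 129 CPM (-3.71). These genes were separated by population and were measurable in both. PRPH (-3.75) and NGFR (-2.48) were lower at lower levels, and NCAM1, which mesoderm also makes, was higher at 213 and 214 CPM against 153 and 152 CPM (0.48). Of 18 listed neural and neural crest genes only 10 passed the filter. Of these, 6 were lower, all 6 by at least 2-fold, and 2 were higher, 1 of them by at least 2-fold. PAX6, SOX1, SOX10, FOXD3, ELAVL3, ELAVL4 and NEUROD1, which define neural cells, did not pass the filter. The count of higher genes was 1 without any single library other than Mock Pdgfra-positive replicate 2.

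Of 24 endothelium markers, 10 were higher and 3 lower in Pdgfra-positive, and 11 did not pass the test. FLI1, an ETS factor, was at 23.7 and 24.3 CPM against 5.98 and 6.38 CPM (1.96 ± 0.0601, adjusted p = 4.39e-29), and ERG at 15.8 and 15.1 CPM against 6.34 and 6.07 CPM (1.32). ENG, a TGF-beta co-receptor, was at 7.86 and 7.35 CPM against 3.63 and 3.62 CPM (1.07). PECAM1 was at most at 0.986 CPM and CDH5 at most at 1.66 CPM in any Mock library, neither passed the test, and LYVE1 was at 0. CDH5 passed it as lower without Mock Pdgfra-positive replicate 1 (-0.91) or without Mock Pdgfra-low replicate 2 (-0.81). KDR, the VEGF receptor that lateral mesoderm also carries, was at 1160 and 1148 CPM against 1208 and 1202 CPM (-0.06), and FLT1 was lower (-0.46). The count of lower markers was 5 without Mock Pdgfra-positive replicate 1. The summed level of the list, most of it KDR, was 1560 and 1552 CPM against 1598 and 1588 CPM.

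**Figure D3:**
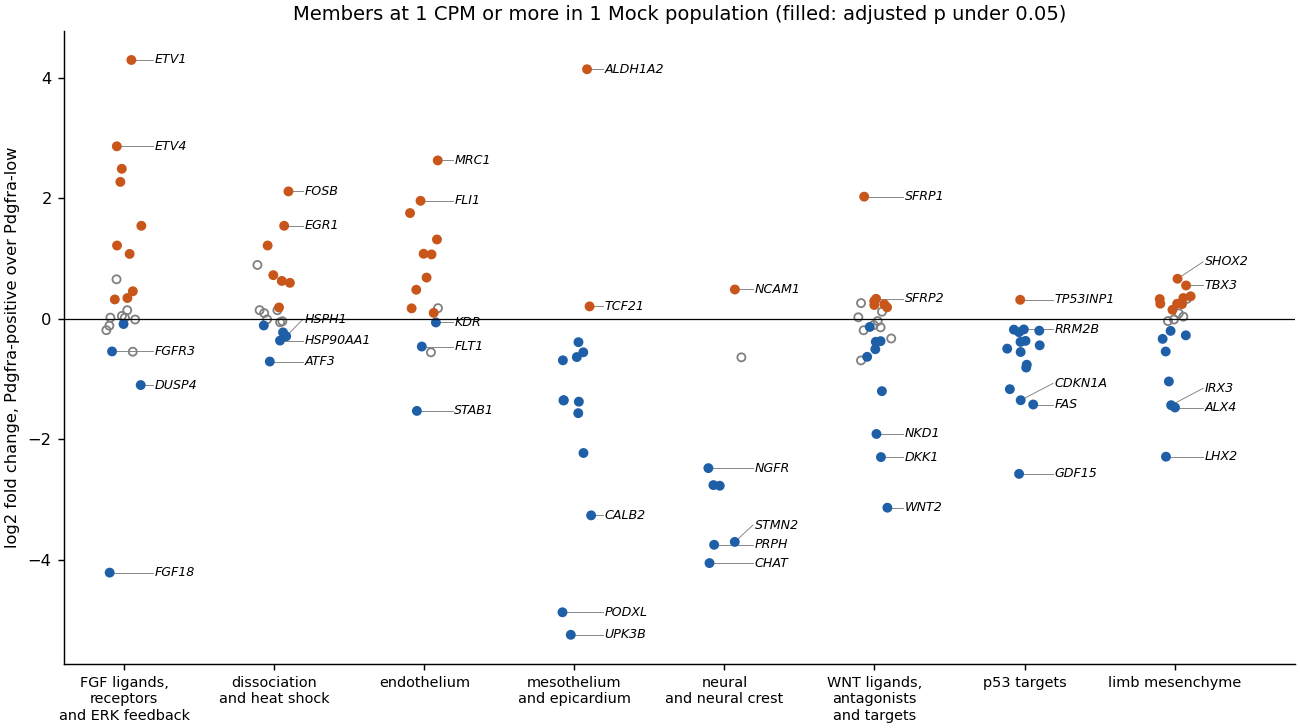
Log2 fold change of Pdgfra-positive over Pdgfra-low (vertical axis) for the members of 8 gene lists (horizontal axis) that reached 1 CPM in a Mock population, 1 point per gene. Filled points passed the adjusted threshold of 0.05, orange for higher and blue for lower; FGF and ERK genes reach 4.30 (ETV1) and mesothelium and epicardium genes reach -5.25 (UPK3B).

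Limb mesenchyme factors were divided between the populations. Of 24 tested, 9 were higher and 8 lower, and all 4 that passed 2-fold were lower. SHOX2, a homeobox factor of the proximal limb, was at 76.1 and 76.9 CPM against 50.1 and 46.5 CPM (0.66), TBX3 at 359 and 373 CPM against 244 and 255 CPM (0.55), and PRRX1, a factor of early limb mesenchyme, at 244 and 250 CPM against 195 and 194 CPM (0.34). On the other side, LHX2, a LIM homeobox factor of the distal limb, was at 1.30 and 1.41 CPM against 7.03 and 6.27 CPM (-2.29), IRX3 at 2.44 and 3.24 CPM against 7.44 and 7.97 CPM (-1.44), and PITX1, the hindlimb factor, at 89.2 and 88.0 CPM against 129 and 130 CPM (-0.54). LHX2 and IRX3, which had the larger folds, were below 8 CPM in every Mock library. TBX4 and TBX5 did not pass the test, and the summed level of the list was 1983 and 2007 CPM against 1814 and 1812 CPM.

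Of 17 lateral plate and cardiac mesoderm genes, 7 were lower in Pdgfra-positive and 4 higher. HAND1 was at 361 and 357 CPM against 521 and 522 CPM (-0.54), and BMP4 at 42.3 and 46.2 CPM against 89.2 and 81.9 CPM (-0.95 ± 0.044, adjusted p = 2.38e-22). FOXF1, a factor of splanchnic mesoderm, was higher at 85.9 and 87.4 CPM against 69.1 and 70.6 CPM (0.31). Among 14 posterior HOX genes, which pattern the limb and the trunk end of the axis, 8 were higher and 6 did not pass the test. HOXD9 was at 18.0 and 19.9 CPM against 9.76 and 8.47 CPM (1.06), HOXD10 at 34.3 and 33.3 CPM against 17.3 and 17.9 CPM (0.94), and HOXD11 at 6.97 and 8.63 CPM against 4.68 and 4.96 CPM (0.70). HOXD10 and HOXD11 share exon sequence on the same strand. Among the posterior genes, the call for HOXD13 was lost without Mock Pdgfra-positive replicate 2 (0.378), and that for HOXA10 was lost without either Mock Pdgfra-positive library (0.327 and 0.345) or without Mock Pdgfra-low replicate 1 (0.273). The anterior and central HOX list of 21 had 3 members higher and 4 lower, not far from the 12.4% and 13.4% of all tested genes. Its higher count changed when Mock Pdgfra-positive replicate 1 was left out.

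Skeletal lineage markers gave no single direction. Of 18 cartilage genes, 7 were higher and 6 lower. COL2A1, the collagen of cartilage, was at 32.6 and 32.0 CPM against 19.6 and 21.3 CPM (0.66), and RUNX2, a factor of bone and hypertrophic cartilage, at 1.73 and 2.86 CPM against 0.953 and 0.777 CPM (1.41). SOX9, the main chondrogenic factor, was at 6.97 and 7.74 CPM against 14.6 and 13.6 CPM (-0.94), and ACAN (aggrecan) at 26.8 and 24.3 CPM against 38.0 and 36.4 CPM (-0.54). In the 12 cardiac muscle genes tested, 2 were higher and 5 lower, with TNNT2 at 58.4 and 65.7 CPM against 47.6 and 46.7 CPM (0.40) and ACTC1 at 18.4 and 19.6 CPM against 30.7 and 28 CPM (-0.63). ACTA2, the smooth muscle actin, was at 2.20 and 2.34 CPM against 4.21 and 4.35 CPM (-0.91). Its list of 16 had 5 higher and 3 lower members, and the higher count was 2 or 3 when any 1 Mock library was left out.

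Of 30 tested WNT ligands, antagonists and targets, 6 were higher and 10 lower in Pdgfra-positive. DKK1, which blocks the LRP co-receptors, was at 12.2 and 11.7 CPM against 59.1 and 58.4 CPM (-2.30 ± 0.0595, adjusted p = 5.78e-32). NKD1, a feedback inhibitor, was at 15.0 and 12.8 CPM against 51.8 and 52.8 CPM (-1.91), and SFRP5, a secreted binder of WNT ligands, at 6.34 and 5.56 CPM against 13.9 and 13.5 CPM (-1.20). SFRP1, of the same family, went the other way, at 26.9 and 26.1 CPM against 6.14 and 6.86 CPM (2.03 ± 0.0591, adjusted p = 5.83e-30). The ligand WNT2 was at 0.717 and 0.996 CPM against 7.49 and 7.69 CPM (-3.14), while WNT5A was at 147 and 146 CPM against 120 and 120 CPM (0.29). The pathway's nuclear factors LEF1 (-0.37) and TCF7 (-0.51) were lower. AXIN2, a common readout of the pathway, was at 27.9 and 26.3 CPM against 30.4 and 29.5 CPM and did not pass the test.

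BMP and TGF-beta genes moved in both directions. NOG (noggin), a BMP antagonist, was at 0.538 and 0.498 CPM against 5.14 and 5.00 CPM (-3.29), and FST (follistatin), which binds activins, at 8.87 and 8.13 CPM against 26.9 and 27.2 CPM (-1.67). BMP2 was at 74.8 and 73.6 CPM against 49.2 and 42.2 CPM (0.70) and BMP7 at 8.29 and 7.74 CPM against 4.16 and 4.02 CPM (0.97), opposite to BMP4. TGFBR3, a co-receptor, was at 1249 and 1265 CPM against 847 and 873 CPM (0.55), and the ligand TGFB2 at 16.5 and 16.4 CPM against 28.9 and 32.6 CPM (-0.90). The BMP antagonist CHRD (0.55) was higher, opposite to NOG. Counts were 10 higher and 7 lower of 25 for BMP, and 5 higher and 4 lower of 18 for TGF-beta and activin. Over all tested genes, 12.4% were higher and 13.4% lower.

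Hedgehog, retinoic acid, Notch and insulin-like growth factor genes also moved in both directions. GAS1, a hedgehog co-receptor, was at 18.9 and 17.9 CPM against 54.7 and 55.6 CPM (-1.58), and PTCH1, receptor and target, at 121 and 110 CPM against 159 and 158 CPM (-0.46), while GLI1, also a target, was at 4.17 and 5.06 CPM against 3.93 and 3.94 CPM and did not pass the test. The hedgehog list had 3 higher and 4 lower of 13, and 1 higher without Mock Pdgfra-low replicate 1. In the retinoic acid list 6 of 18 were higher and 4 lower, and 2 were lower without Mock Pdgfra-low replicate 2 or without either Mock Pdgfra-positive library. STRA6, which imports retinol, was at 349 and 344 CPM against 256 and 256 CPM (0.44). DHRS3, which turns retinaldehyde back into retinol, was at 0.0448 and 0 CPM against 1.31 and 2.17 CPM. RDH10 was lower too, at 15.8 and 15.5 CPM against 23.3 and 23.8 CPM (-0.59). ALDH1A1 (-6.64) and ALDH1A3 (-3.65), of the same family as ALDH1A2, were also lower, but reached at most 0.298 and 0.480 CPM in any Mock library. NOTCH1 was at 87.9 and 91.8 CPM against 156 and 150 CPM (-0.76). Its list had 4 higher and 3 lower of 16, against 12.4% and 13.4% of all tested genes. The insulin-like growth factor list had 8 higher and 2 lower of 18.

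Vascular, guidance and chemokine signals also separated the populations. Beside ANGPT1, NRP1, a receptor for semaphorins and VEGF, was at 390 and 393 CPM against 234 and 245 CPM (0.71), and VEGFA at 720 and 735 CPM against 606 and 580 CPM (0.29). Of 16 VEGF and angiopoietin genes, 6 were higher and 4 lower. SEMA3E, a secreted semaphorin, was at 6.86 and 6.76 CPM against 55.1 and 55.1 CPM (-3.02), and SEMA3A at 17.8 and 20.2 CPM against 41.0 and 39.0 CPM (-1.07), whereas the netrin receptor UNC5C was at 244 and 241 CPM against 151 and 150 CPM (0.68). The axon guidance and ephrin list had 9 higher and 12 lower of 33, so its members did not share a direction. The chemokine CXCL12 was at 34.3 and 36.7 CPM against 14.6 and 13.5 CPM (1.34), and its receptor CXCR4 at 3.47 and 4.09 CPM against 1.66 and 1.52 CPM, in a list with 5 higher and 6 lower of 20.

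Surface antigens used in sorting differed in both directions, with 12 of 37 higher and 12 lower. DPP4 (CD26), a peptidase, was at 3.88 and 3.82 CPM against 19.9 and 19.1 CPM (-2.34), and CD82, a tetraspanin, at 4.19 and 4.77 CPM against 16.1 and 16.9 CPM (-1.88). CD44, the hyaluronan receptor, was at 5.89 and 6.49 CPM against 14.4 and 13 CPM (-1.14), and the adhesion molecule L1CAM at 7.26 and 7.86 CPM against 15.7 and 15.3 CPM (-1.03). THY1 (CD90) was at 17.4 and 16.0 CPM against 10.1 and 9.44 CPM (0.77). ENG was the only antigen of the list higher by at least 2-fold. PDGFRB, the sister receptor of PDGFRA, which the gate did not use, was at 252 and 253 CPM against 200 and 198 CPM (0.34 ± 0.0268, adjusted p = 1.53e-14), and the ligands PDGFA and PDGFC did not pass the test. Of 6 PDGF ligands and receptors, 3 were higher and 0 lower, counting PDGFRA, which the sort used. Of the 3, PDGFRA and 1 other member besides PDGFRB were higher by at least 2-fold.

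Most tested p53 targets, amino acid stress genes and hypoxia and glycolysis genes were lower in Pdgfra-positive. Of 16 p53 targets, 15 were lower and 1, TP53INP1 (0.31), was higher, with a median of -0.47. CDKN1A (p21), which halts the cell cycle, was at 18.1 and 18.4 CPM against 46.6 and 46.7 CPM (-1.35 ± 0.0564, adjusted p = 4.58e-24), and GDF15, FAS and FDXR also passed 2-fold. Of 17 amino acid stress genes, 17 were lower, with a median of -0.44 and TRIB3 the farthest at -0.80. Of 22 hypoxia and glycolysis genes, 12 were lower and 1, VEGFA, was higher. SLC2A1, the glucose transporter GLUT1, was at 93.4 and 94.2 CPM against 285 and 286 CPM (-1.61 ± 0.0355, adjusted p = 1.21e-34), and LDHA at 388 and 381 CPM against 475 and 492 CPM (-0.33).

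Of 32 cell cycle genes, 21 were lower and 2 higher, with a median of -0.18, and the higher count was 0 without Mock Pdgfra-positive replicate 1. PCNA was at 48.8 and 45.4 CPM against 64.1 and 63.9 CPM (-0.44), and CCNB1 (cyclin B1) at 55.5 and 54.5 CPM against 69.6 and 67.9 CPM (-0.32). CCND1 (cyclin D1), a target of mitogen signalling, was at 71.3 and 64.9 CPM against 36.2 and 31.8 CPM (1.00), opposite to most of the cycle genes. Of 20 cholesterol synthesis genes, 11 were higher and 9 did not pass the test, with a median of 0.14. INSIG1, a sterol sensor, was at 71.9 and 67.8 CPM against 53.1 and 53.7 CPM (0.39).

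**Figure D4:**
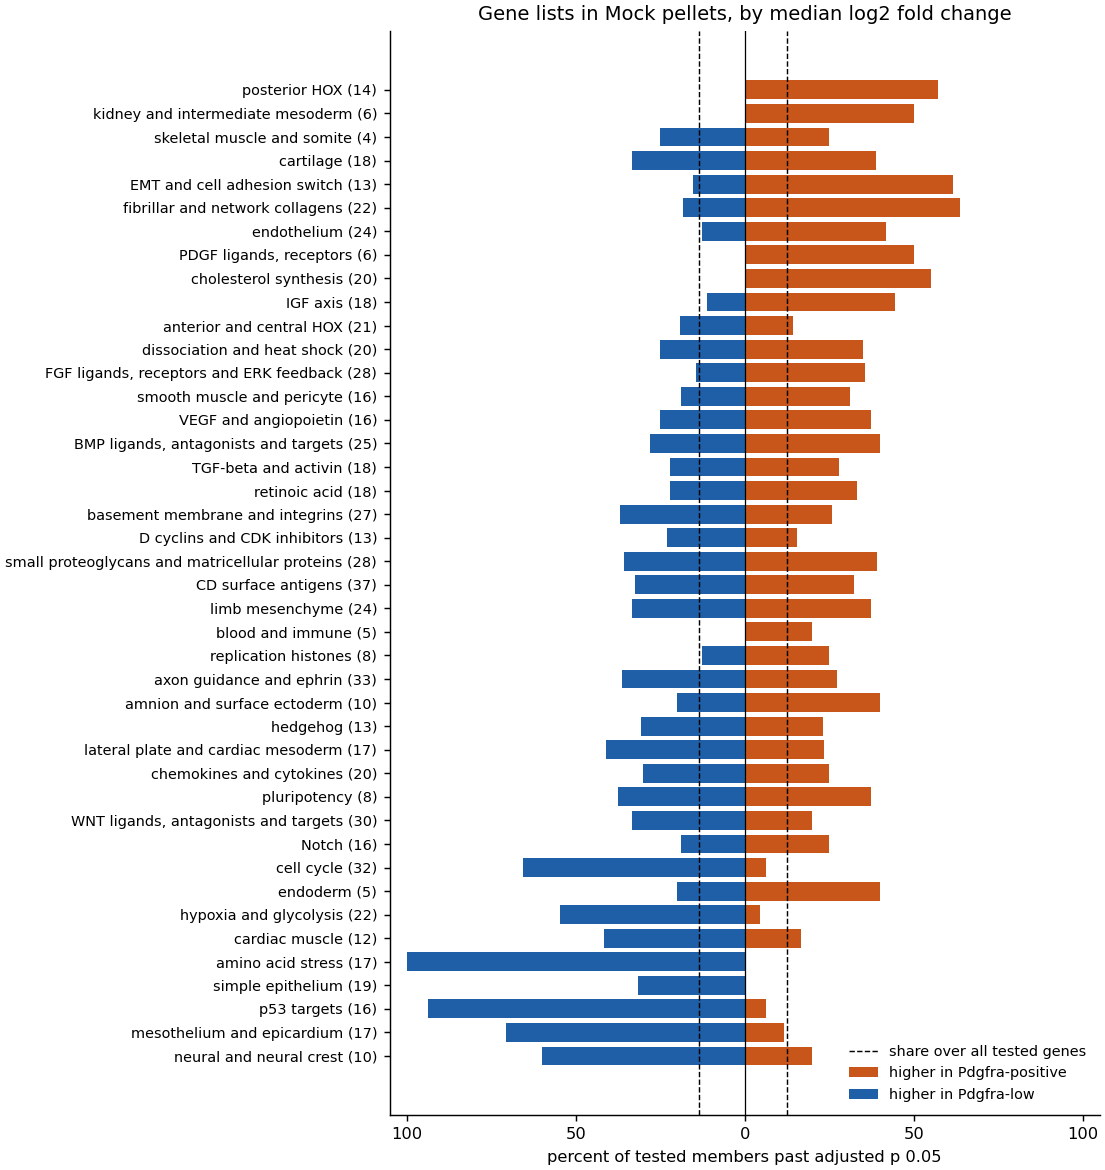
Percent of the tested members of each gene list that were higher (orange, right) or lower (blue, left) in Mock Pdgfra-positive at an adjusted p under 0.05, ordered by the list's median log2 fold change, with the number of tested members in brackets. Dashed lines mark 12.4% and 13.4%, the shares over all tested genes; the amino acid stress bar reaches all 17 members on the left.

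The same gate under FGF8+10 shared no library with the Mock comparison, so the populations could be compared across treatments. Under FGF8+10, 9335 of 22554 genes (41.4%) differed, 4430 (19.6%) higher and 4905 (21.7%) lower in Pdgfra-positive, and 1440 (6.38%) by at least 2-fold, 705 (3.13%) higher and 735 (3.26%) lower. The median size of the log2 fold change over all tested genes was 0.2174 under Mock and 0.3266 under FGF8+10. Of the 875 genes past 2-fold under Mock, 374 (42.7%) also differed in the same direction under FGF8+10, 73 (8.34%) in the opposite direction, and 428 (48.9%) did not pass the test there. The genes past 2-fold in the same direction in both treatments numbered 253, which is 28.9% of the Mock genes and 17.6% of the FGF8+10 genes. The difference of the differences, tested in the same model, passed the threshold in 5862 genes (26%), of which 1002 (4.44%) differed by at least 2-fold, 534 (2.37%) with the more positive difference under Mock. It passed in 426 (48.7%) of the 875, a share raised by the choice of these genes on their Mock difference, which enters the test.

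**Figure D5:**
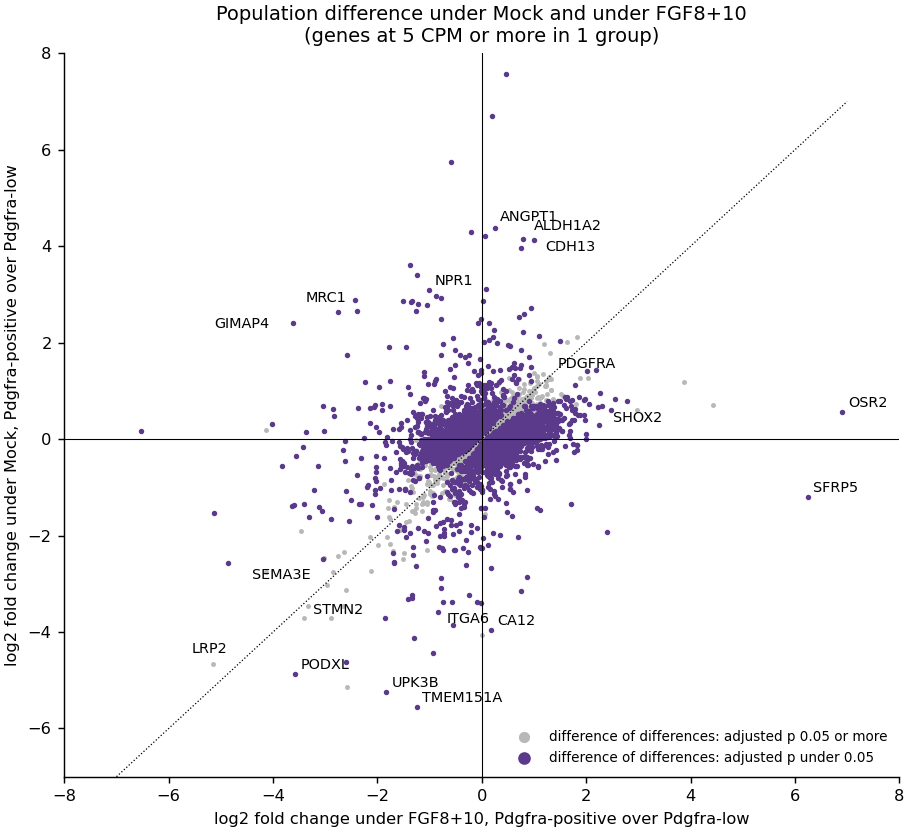
Log2 fold change of Pdgfra-positive over Pdgfra-low under Mock (vertical axis) against the same under FGF8+10 (horizontal axis) for the 12251 genes at 5 CPM or more in a group; the dotted line marks equal differences. Purple points are genes whose differences were themselves different at an adjusted p under 0.05; ANGPT1 lies near 0 on the horizontal axis, and LRP2 and SEMA3E lie near the dotted line.

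Of the 11 leading excesses of Mock Pdgfra-positive described here, 10 differed between treatments by at least 2-fold in the test of the difference. These genes were chosen by their Mock fold change, which is part of that difference, so the count is a description and no independent finding. ANGPT1 was at 310 and 308 CPM in FGF8+10 Pdgfra-positive and 258 and 262 CPM in FGF8+10 Pdgfra-low, a log2 fold change of 0.25, and the difference of the differences was 4.12 ± 0.0946 (adjusted p = 3.76e-33). SPRY4 turned, at 87.1 and 94.2 CPM against 158 and 155 CPM under FGF8+10 (-0.79, difference of the differences 3.28 ± 0.11, adjusted p = 2.05e-27). In these genes both FGF8+10 populations lay well above both Mock populations. DUSP6 (2.48), ETV1 (4.50) and ETV4 (4.20) had differences of the differences of the same sign. FOSB was an exception, at 11.2 and 12.1 CPM against 2.68 and 3.87 CPM under FGF8+10, with a difference of the differences of 0.29 ± 0.171 (adjusted p = 0.236).

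Part of the leading deficits was shared. Of the 12 leading deficits, TMEM151A, UPK3B, PODXL, TMEM255A, MEOX1, GCNT2, CA12 and CEMIP differed by at least 2-fold in the test of the difference. They too were chosen by their Mock fold change, so this is a description. LRP2, a large endocytic receptor, was at 0.381 and 0.207 CPM against 7.47 and 7.36 CPM under Mock and at 0.370 and 0.412 CPM against 14.1 and 13.7 CPM under FGF8+10 (difference of the differences 0.48 ± 0.393, adjusted p = 0.433). Outside the 12, the difference of the differences did not pass the test for SEMA3E (-0.06 ± 0.75, adjusted p = 0.978) and DPP4 (0.31 ± 0.24, adjusted p = 0.408). SEMA3E was at 0.207 and 0.0294 CPM against 1.17 and 0.716 CPM under FGF8+10, so its comparison is imprecise. PODXL was lower in both treatments, with 2.1 and 1.94 CPM against 25.6 and 22.7 CPM under FGF8+10, and the Mock deficit was larger by 1.30 on the log2 scale (-1.30 ± 0.109, adjusted p = 1.38e-12). CA12 had its difference under Mock, since FGF8+10 values were 0.977 and 1.12 CPM against 0.962 and 0.887 CPM (difference of the differences -4.15 ± 0.241, adjusted p = 1.17e-18). CHAT was at 0 in all 4 FGF8+10 libraries, so the comparison between treatments is uninformative for it. KRT8 had the larger deficit under FGF8+10, where it was at 173 and 171 CPM against 745 and 729 CPM (difference of the differences 0.74 ± 0.0331, adjusted p = 8.95e-23).

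Counts of list members past the test of the difference are read against 26% of all tested genes. Of 24 endothelium markers, 2 were higher and 18 lower in Pdgfra-positive under FGF8+10, with a median of -2.06, and the difference of the differences passed in 17. PECAM1 was at 2.09 and 3.11 CPM against 19.4 and 17.5 CPM under FGF8+10. Of 20 cholesterol genes, 18 were lower under FGF8+10, and 19 passed the test of the difference. Lists mostly lower under Mock were mostly lower under FGF8+10 too (21.7% over all tested genes). These were 14 of 16 p53 targets, 15 of 17 amino acid stress genes and 15 of 22 hypoxia and glycolysis genes, with 1, 1 and 3 higher. Likewise, 11 of 17 mesothelium and epicardium markers and 31 of 32 cell cycle genes were lower there, with 4 and 0 higher. The posterior HOX list of 14 had 7 members higher and 2 lower under FGF8+10, and 5 passed the test of the difference. Their median was 0.35 in both treatments, and HOXD10 differed by 0.01 ± 0.076 between them (adjusted p = 0.954). Abundant secreted proteins differed between treatments in both directions. IGFBP3 was at 7123 and 7162 CPM against 3363 and 3407 CPM (1.08, difference of the differences -0.77 ± 0.0188, adjusted p = 2.48e-32). FN1 (fibronectin) had the smaller fold change there, 0.14 against 0.38 under Mock (difference of the differences 0.23 ± 0.0199, adjusted p = 3.75e-13). POSTN turned, from lower under Mock to 176 and 182 CPM against 127 and 122 CPM under FGF8+10 (difference of the differences -1.11 ± 0.0314, adjusted p = 5.57e-30).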

How the data were processed

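RNA of 8 libraries, 4 of them from Mock pellets, was measured by sequencing (per the labels, extraction with TRI Reagent and NEBNext Ultra RNA libraries). The authors deposited raw counts per gene name for 61209 names. Per the submitters' processing notes, FastQC 0.11.8 and HISAT2 2.1.0 with GRCh38 were used. Per the file headers, featureCounts 2.0.3 counted exons on GENCODE release 42 without strand and counted both mates of a pair, so counts overstate fragments. Reads shared by overlapping genes were dropped, and 131 of the 292 genes that could be named share exon sequence with another gene name.

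Of 39416 genes with a count, 22554 passed filterByExpr. One robust quasi-likelihood model (edgeR 4.0.16, R 4.3.3, limma 3.58.1) with TMM scaling and a mean for each of 4 groups was fitted over all 8 libraries, which left 4 residual degrees of freedom. Contrasts were Pdgfra-positive against Pdgfra-low under Mock, the same under FGF8+10, and their difference, each adjusted by Benjamini-Hochberg over all tested genes. The standard error is the log2 fold change divided by the square root of F. DESeq2 1.42.0, other scalings, other filters, halved counts, fewer libraries and a replicate block were alternatives. The script was tested on simulated data. Same-numbered libraries did not deviate together (correlations of -0.012 to 0.019), so the numbers were not taken to pair samples.

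Depth in the series was 47698561 to 64390444 counts per library, and the common biological coefficient of variation was 4.06%. In the Mock libraries 6 counts, or 3 pairs, equal 0.0986 to 0.134 CPM, below which a level is not detectable.

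Named genes were the 12 largest rises and 12 largest falls at 5 CPM or more without overlap between the Mock populations. They also included the 8 largest CPM differences each way and the 10 largest differences between treatments. Up to 4 moved members and the first 3 members of each of 44 gene lists were named as well. Other names were chosen after their values were seen: these are the list members with smaller differences and those that did not pass the test. The comparison, lists and rules were chosen with earlier results of these data known. Results for a few genes are not reported here. The mitochondrial transcripts list had no counts.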

Additional observations from a re-analysis of the deposited data

Results flagged for a closer look

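For 28 named genes, the population difference under Mock departed from that under FGF8+10 by at least 2-fold, tested as an interaction in edgeR's quasi-likelihood model with 2 libraries a group. Values in brackets are the Mock log2 difference minus the FGF8+10 log2 difference. The genes were chosen by the Mock difference, which enters this value, or by the value itself, so their number is no finding. Among the genes with the largest Mock excess, these were ANGPT1 (4.12), COLEC10 (4.14), ALDH1A2 (3.35), CDH13 (3.11), TNFRSF1B (3.03), NPR1 (4.10), SPRY4 (3.28), CDCA7L (2.25), SPRY1 (2.05) and SLITRK6 (1.91). Among those with the largest Mock deficit, they were TMEM151A (-4.32), UPK3B (-3.42), PODXL (-1.30), TMEM255A (-2.01), MEOX1 (-3.51), GCNT2 (-2.84), CA12 (-4.15) and CEMIP (-3.30). The genes with the largest such departures of all were SFRP5 (-7.45), KLHL14 (6.50), OSR2 (-6.35), PIK3CG (6.34), GIMAP4 (6.02), MRC1 (5.37), MMRN1 (5.31), NTS (5.06), NR5A2 (4.98) and MYZAP (4.65).

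Several of the last group, and some of the deficits, rest on levels near the detection limit in some libraries. Under FGF8+10, TMEM151A was at 0.0592 and 0.0589 CPM against 0.113 and 0.171 CPM. MEOX1 was at 0.118 and 0.0294 CPM against 0.151 and 0.136 CPM there, and UPK3B at 0.104 and 0.265 CPM against 0.717 and 0.614 CPM. SFRP5 was at 6.34 and 5.56 CPM against 13.9 and 13.5 CPM under Mock, and at 0.118 and 0.206 CPM against 0 and 0 CPM under FGF8+10. GIMAP4 was at 0.851 and 0.747 CPM against 0.164 and 0.132 CPM under Mock, and at 1.01 and 0.721 CPM against 10.1 and 11.1 CPM under FGF8+10. Fitted folds against libraries at or near 0 depend on the prior count and are no bound.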

How the results depend on the processing

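The number of genes that differed between the Mock populations stayed within 1.5 times the value reported under every alternative run. Without any 1 Mock library, 2053 to 2199 genes were higher and 2347 to 2599 lower. DESeq2 gave 2288 higher and 2865 lower. The share of calls that were higher ranged from 41.9% with no filter to 51.1% with a filter at 1 CPM. With the replicate number as a block, 2779 genes were higher and 3024 lower; the numbers are shared labels only, so this is not evidence of pairing. Of 270 named genes, 241 to 268 kept direction and side of the threshold where all 270 were refitted. One lost its sign: the log2 fold change of LHX1, 6.02 in the fit reported, rests on Mock Pdgfra-positive replicate 2 (0.27 CPM, against 0 CPM in the other 3 Mock libraries), and was 0 without it and 7.016 without replicate 1 of that population. With 2 libraries a group, genes below about 0.134 CPM are not detectable.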

Other observations

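A selection chosen after the data were seen gave 18 genes at 20 CPM or more in FGF8+10 Pdgfra-positive and under 1 CPM in Mock Pdgfra-low, among them ANGPT1, ETV1, ALDH1A2, GFRA1, RUNX2 and IL7R. In Mock Pdgfra-positive they stood at 4.45% to 16.2% of their FGF8+10 Pdgfra-positive level, with a median of 8.2%, and in Mock Pdgfra-low at a median of 1.5%. Low levels in Mock Pdgfra-low were a condition of the selection, so the order of the Mock populations is no finding. The same selection with under 1 CPM in Mock Pdgfra-positive held 1 gene, NOX5, which is also among the 18. NOX5 was at a mean of 0.991 CPM in Mock Pdgfra-positive, just under the limit, and was higher there than in Mock Pdgfra-low (0.214 CPM). Both selections required a high level in FGF8+10 Pdgfra-positive, so they do not mirror each other and the numbers 18 and 1 are no contrast.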
